A study of Mus musculus with 2 samples.

Results

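Of the 32285 genes counted in 2 single-cell RNA sequencing libraries of mouse skin tumours, 39 were taken here as a module of cell cycle genes, chosen by name: 18 genes of DNA replication (S members) and 21 genes of G2 phase and mitosis (mitotic members). All 39 were found in the count tables. The 9 genes for the Mcm helicase, Pcna and both subunits of ribonucleotide reductase (Rrm1 and Rrm2) form the core S set. One library came from Eed iKO-D mice, which carried K14CrERT2 and Eed flox/flox and received hydroxytamoxifen and the carcinogen DMBA. The other came from Ctrl-D mice, which carried Eed flox/flox without the Cre and received the solvent ethanol and DMBA. The hydroxytamoxifen solution was put on shaved back skin from postnatal day 50 on 4 days, DMBA weekly for up to 20 weeks, and tumours of the dorsal skin were taken at an age of 5 months. K14CrERT2 is a Cre that tamoxifen activates in cells with an active keratin 14 promoter, so only keratinocytes are set to lose Eed. Both libraries share the floxed Eed alleles and the carcinogen, while Cre genotype and tamoxifen differed together and cannot be told apart. Each group had 1 library and the number of animals in it is not given in the sources used here, so no difference has a replicate check, no p-value was computed, and intervals (95%) cover counting error only.

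Dividing cells pass from G1 into S phase, when the genome is copied, and then through G2 into mitosis. In G1, Cdc6 and Cdt1 load the Mcm helicase onto origins, and cyclin E with its kinase helps to fire them. In mitosis, Cdk1 with A- and B-type cyclins, Polo and Aurora kinases drive the spindle until the anaphase-promoting complex (APC/C) destroys the cyclins. Replication genes are known targets of E2F factors. Genes of G2 and mitosis are known targets of the MuvB complex with B-Myb and FoxM1, which acts through the CHR element, often beside CCAAT boxes bound by NF-Y. In healthy epidermis dividing cells lie in the basal layer and stop dividing as they move up into the spinous and cornifying layers, while the matrix of the growing hair is among the fastest dividing tissues of the skin.

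The promoters of S and mitotic members carry different letters, and 5 of them are shown because they hold these elements most plainly. Promoter windows run from 250 bases before to 50 bases after the annotated start, from RefSeq (GRCm38.p6), 5′ to 3′ on the gene's strand. Capitals mark E2F letters (TTTCGCGC, TTTGGCGC, TTTCCCGC or TTTGCCGC) in all 5 and, in the mitotic members, also CHR letters (TTTGAA or TTCGAA) and CCAAT, each on either strand. The first 2 encode subunits of the helicase, Cdk1 the mitotic kinase, Top2a the enzyme that untangles chromosomes, and Hmgb2 a chromatin protein.
Mcm6 (chr1:128359656-128359955, minus strand): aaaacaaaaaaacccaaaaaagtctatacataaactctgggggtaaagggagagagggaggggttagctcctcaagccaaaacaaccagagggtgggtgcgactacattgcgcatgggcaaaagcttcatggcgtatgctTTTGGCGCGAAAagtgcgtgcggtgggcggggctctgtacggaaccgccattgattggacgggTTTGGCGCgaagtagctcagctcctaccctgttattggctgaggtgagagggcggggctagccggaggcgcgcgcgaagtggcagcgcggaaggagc
Mcm5 (chr8:75109259-75109558, plus strand): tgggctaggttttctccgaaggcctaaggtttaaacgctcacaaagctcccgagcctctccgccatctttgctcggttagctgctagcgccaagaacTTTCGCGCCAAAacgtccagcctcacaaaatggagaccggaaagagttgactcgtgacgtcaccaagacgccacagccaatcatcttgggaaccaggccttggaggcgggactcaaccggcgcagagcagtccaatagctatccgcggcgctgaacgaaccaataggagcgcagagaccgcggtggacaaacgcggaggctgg
Cdk1 (chr10:69352863-69353162, minus strand): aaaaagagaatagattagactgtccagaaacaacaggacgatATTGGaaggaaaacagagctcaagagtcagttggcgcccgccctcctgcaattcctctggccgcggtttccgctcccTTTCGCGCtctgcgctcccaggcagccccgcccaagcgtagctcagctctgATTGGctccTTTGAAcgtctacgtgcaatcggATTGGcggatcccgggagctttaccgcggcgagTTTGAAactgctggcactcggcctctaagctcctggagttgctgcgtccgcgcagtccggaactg
Top2a (chr11:99024140-99024439, minus strand): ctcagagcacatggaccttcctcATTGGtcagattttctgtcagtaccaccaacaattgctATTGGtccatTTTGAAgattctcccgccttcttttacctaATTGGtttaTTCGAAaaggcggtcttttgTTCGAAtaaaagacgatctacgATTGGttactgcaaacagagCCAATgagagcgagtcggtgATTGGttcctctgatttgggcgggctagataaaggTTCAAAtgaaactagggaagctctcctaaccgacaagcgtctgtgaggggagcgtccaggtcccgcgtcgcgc
Hmgb2 (chr8:57511593-57511892, plus strand): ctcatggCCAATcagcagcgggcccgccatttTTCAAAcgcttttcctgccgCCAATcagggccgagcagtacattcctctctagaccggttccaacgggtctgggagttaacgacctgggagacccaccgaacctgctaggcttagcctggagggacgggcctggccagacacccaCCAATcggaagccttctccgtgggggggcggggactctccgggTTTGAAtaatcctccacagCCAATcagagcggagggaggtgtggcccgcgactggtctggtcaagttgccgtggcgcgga

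RefSeq windows were found for 33 of the 39 members. The E2F letters stood in 38.9% of the 18 windows of S members (15 genes), in 5.56% of the 18 windows of mitotic members and in 2.26% of all 32851 windows. The CHR letters showed the opposite split, with 77.8% of mitotic windows, 16.7% of S windows and 19.2% of all windows. CCAAT was found in 83.3% of mitotic windows, 66.7% of S windows and 37.4% of all windows. A match is a run of letters and not a bound site. Cdk1 was the single mitotic member with E2F letters, and the windows of Nusap1 and Birc5 held none of the 3 elements.

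The Eed iKO-D library held 22259 barcodes and 289511009 UMIs (unique molecular identifiers, which tag single captured RNA molecules), and Ctrl-D 8039 barcodes and 120500892 UMIs. They shared 49 barcodes. After filtering, cells were sorted by marker genes into epithelial, stromal, immune and other gates, using no member. In Eed iKO-D, 14142 of 21484 kept barcodes had over 20% of their UMIs in Gm42418, a gene that overlaps ribosomal RNA, and were left out of the gates, against 17 of 7522 in Ctrl-D. The epithelial gate held 3169 Eed iKO-D and 5502 Ctrl-D cells, with all 16 epithelial markers detected in each library. Their median depth was 39503 UMIs in Eed iKO-D and 15962 in Ctrl-D, and every cell was therefore thinned to 1500 UMIs, which left 3158 and 5416 cells, in the same order. Levels are given as CPM, the usual scale of counts relative to the total, here over all thinned UMIs of a gate. Eed, the deleted gene, had 49.8 CPM in Eed iKO-D and 57.4 CPM in Ctrl-D epithelial-gated cells (ratio 0.869, 0.739 to 1.02). Reads from the 3′ end need not touch the floxed exons, so this value does not check the deletion.

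In epithelial-gated cells the core S members were nearly level between libraries and the mitotic members together were lower in Eed iKO-D. The core S members together had 362 CPM in Eed iKO-D and 370 CPM in Ctrl-D, a ratio of 0.979 (0.922 to 1.04). All 18 S members summed to 510 CPM in Eed iKO-D and 558 CPM in Ctrl-D (ratio 0.915, 0.870 to 0.961). The 21 mitotic members summed to 1160 CPM in Eed iKO-D and 1548 CPM in Ctrl-D (ratio 0.750, 0.726 to 0.774). Hmgb2 made up a large part of that gap: without it the mitotic sum was 946 CPM in Eed iKO-D and 1084 CPM in Ctrl-D (ratio 0.872, 0.841 to 0.904). The core S sum therefore stood at 0.312 times the mitotic sum in Eed iKO-D (0.296 to 0.330) and at 0.239 times in Ctrl-D (0.230 to 0.249), intervals that do not meet. Without Hmgb2 these quotients were 0.383 (0.362 to 0.405) in Eed iKO-D and 0.341 (0.328 to 0.356) in Ctrl-D.

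Read member by member, 1 of the 18 S members passed a limit of 1.5-fold upwards in Eed iKO-D and 3 passed it downwards, while of the 21 mitotic members 0 passed upwards and 5 downwards. Of all 12866 genes that reached 20 UMIs over both libraries, 30.9% passed upwards and 18.7% downwards. The members' counts on the lower side, S and mitotic, were thus near the background, and those on the higher side were below it. The median log2 ratio was -0.05 over the S members, -0.16 over the mitotic members and 0.20 over all genes, and 14 S and 18 mitotic members lay below the median of all genes.

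**Figure D1:**
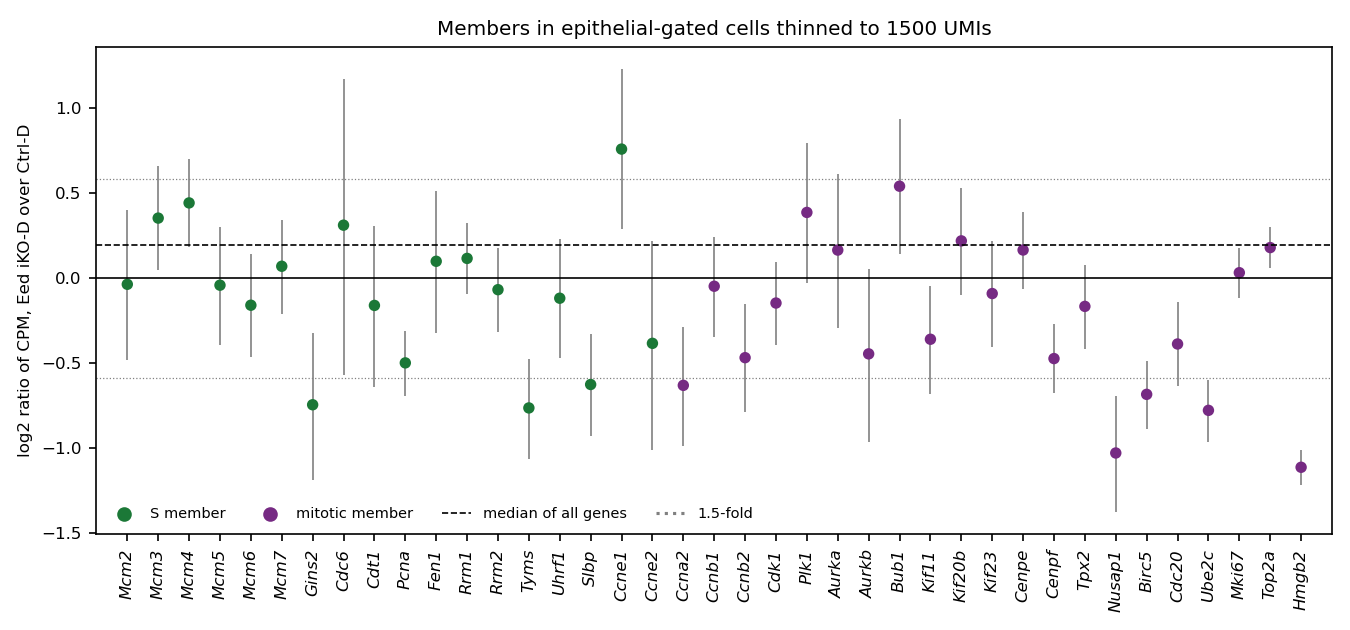
The log2 ratio (Eed iKO-D over Ctrl-D) of each member in epithelial-gated cells, with 95% counting intervals, S members in green and mitotic members in purple, in order of role. Ccne1 stands above the upper 1.5-fold line, and Hmgb2 and Nusap1 lie lowest, near -1.11 and -1.02.

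Among the licensing genes, the helicase subunits were level or slightly higher in Eed iKO-D and the group summed to 215 CPM in Eed iKO-D and 207 CPM in Ctrl-D (ratio 1.04, 0.958 to 1.12). Mcm4 had 46.9 CPM in Eed iKO-D and 34.5 CPM in Ctrl-D (ratio 1.36, 1.14 to 1.63), and Mcm3 33.4 CPM in Eed iKO-D and 26.1 CPM in Ctrl-D (ratio 1.28, 1.03 to 1.58). Mcm2, Mcm5, Mcm6 and Mcm7 had ratios between 0.896 and 1.05, each with an interval that held 1. The loaders Cdt1 and Cdc6 had ratios of 0.895 (0.642 to 1.24) and 1.24 (0.673 to 2.25), the second from only 21 UMIs in Eed iKO-D and 29 in Ctrl-D. Gins2, a subunit of the GINS complex that activates the helicase, departed from its group with 13.1 CPM in Eed iKO-D and 21.9 CPM in Ctrl-D (ratio 0.597, 0.440 to 0.802).

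Genes of DNA synthesis and nucleotide supply summed to 272 CPM in Eed iKO-D and 331 CPM in Ctrl-D (ratio 0.820, 0.767 to 0.877), and the group was split. Tyms, thymidylate synthase, had 27.7 CPM in Eed iKO-D and 46.9 CPM in Ctrl-D (ratio 0.590, 0.480 to 0.721). Slbp, which binds the stem-loop of replication-dependent histone mRNAs, had 27.2 CPM in Eed iKO-D and 42.0 CPM in Ctrl-D (ratio 0.649, 0.526 to 0.797). Both passed the 1.5-fold limit downwards. The sliding clamp Pcna had 67.8 CPM in Eed iKO-D and 95.6 CPM in Ctrl-D (ratio 0.709, 0.620 to 0.808), just short of that limit. The ribonucleotide reductase subunits Rrm1 and Rrm2, which make deoxynucleotides, had ratios of 1.08 (0.937 to 1.25) and 0.955 (0.803 to 1.13). The flap nuclease Fen1 (1.07, 0.800 to 1.43) and Uhrf1, which brings the maintenance DNA methyltransferase to new DNA (0.922, 0.722 to 1.17), were also level within counting error.

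The cyclin E genes went different ways. Ccne1 had 16.5 CPM in Eed iKO-D and 9.72 CPM in Ctrl-D, the single member past 1.5-fold upwards (ratio 1.69, 1.22 to 2.35). Its paralogue Ccne2 had 7.18 CPM in Eed iKO-D and 9.36 CPM in Ctrl-D (ratio 0.767, 0.496 to 1.16). Ccne1 rests on 78 UMIs in Eed iKO-D and 79 in Ctrl-D.

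Mitotic cyclins and kinases summed to 188 CPM in Eed iKO-D and 205 CPM in Ctrl-D (ratio 0.916, 0.843 to 0.994). Cyclin A2 (Ccna2), which serves both S phase and G2, had 20.1 CPM in Eed iKO-D and 31.0 CPM in Ctrl-D (ratio 0.647, 0.505 to 0.822). Of the B-type cyclins, Ccnb2 had a ratio of 0.724 (0.579 to 0.900) and Ccnb1 one of 0.968 (0.789 to 1.18), and their kinase Cdk1 had 45.0 CPM in Eed iKO-D and 49.7 CPM in Ctrl-D (ratio 0.904, 0.762 to 1.07). The checkpoint kinase Bub1 lay on the other side, with 21.3 CPM in Eed iKO-D and 14.6 CPM in Ctrl-D (ratio 1.46, 1.11 to 1.91). Plk1 (1.31, 0.983 to 1.74), Aurka (1.12, 0.818 to 1.53) and Aurkb (0.735, 0.513 to 1.04), the Polo and Aurora kinases, had intervals that held 1.

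Spindle and kinetochore members summed to 325 CPM in Eed iKO-D and 409 CPM in Ctrl-D (ratio 0.795, 0.748 to 0.845). Nusap1, a protein that stabilises spindle microtubules, had 19.6 CPM in Eed iKO-D and 40.0 CPM in Ctrl-D (ratio 0.491, 0.385 to 0.620). Birc5 (survivin), which works beside Aurora B in the chromosomal passenger complex, had 59.5 CPM in Eed iKO-D and 95.5 CPM in Ctrl-D (ratio 0.623, 0.542 to 0.715). The kinetochore proteins parted: Cenpf had 60.8 CPM in Eed iKO-D and 84.3 CPM in Ctrl-D (ratio 0.721, 0.626 to 0.829), while Cenpe had 56.4 CPM in Eed iKO-D and 50.2 CPM in Ctrl-D (ratio 1.12, 0.958 to 1.31). The motors Kif11, which pushes spindle poles apart, Kif23, which acts in cytokinesis, and Kif20b had ratios of 0.780, 0.940 and 1.16, and the microtubule nucleator Tpx2 one of 0.892.

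The APC/C members gave the lowest ratio of the 7 role groups, 113 CPM in Eed iKO-D and 176 CPM in Ctrl-D (0.641, 0.579 to 0.708). Ube2c, the ubiquitin-conjugating enzyme of the complex, had 70.5 CPM in Eed iKO-D and 121 CPM in Ctrl-D (ratio 0.584, 0.514 to 0.662). Its activator Cdc20 had 42.0 CPM in Eed iKO-D and 54.9 CPM in Ctrl-D (ratio 0.765, 0.644 to 0.906). Of the chromosome structure genes, Hmgb2, a DNA-bending protein that is not limited to dividing cells, had 215 CPM in Eed iKO-D and 464 CPM in Ctrl-D (ratio 0.463, 0.432 to 0.496). Top2a had 195 CPM in Eed iKO-D and 172 CPM in Ctrl-D (ratio 1.13, 1.04 to 1.23), and Mki67, the source of the Ki-67 antigen that coats mitotic chromosomes, had 126 CPM in Eed iKO-D and 123 CPM in Ctrl-D (ratio 1.02, 0.923 to 1.13). The 2 members most used as markers of division thus had no lower level in Eed iKO-D, unlike Hmgb2, Ube2c and Birc5, although their log2 ratios (Top2a 0.18, Mki67 0.03) lay below the median of all genes, 0.20.

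Gene length moved with the ratios across all genes. Spearman's rank correlation between gene length and log2 ratio was 0.40 across 12859 genes, which are not independent replicates. Of 5 length classes with equal numbers of genes, the shortest had a median log2 ratio of -0.41 and the longest one of 0.67, and the correlation was above 0 in all 9 gates compared (0.30 to 0.51). Hmgb2 (4.09 kb), Birc5 (6.49 kb) and Ube2c (8.93 kb) are shorter than Top2a (31.2 kb) and Mki67 (26.6 kb). Against the median of its own length class, Hmgb2 stood at -0.70 on the log2 scale, Ube2c at -0.73, Tyms at -0.71, Birc5 at -0.27 and Nusap1, of 32.9 kb, at -1.19, while Top2a stood at 0.01 and Ccne1 at 0.81. On this scale Cenpf (-0.87) and Kif11 (-0.76) also passed 1.5-fold downwards, and Birc5, Ccna2 (-0.22) and Slbp (-0.575) no longer did. The same correlation over the 21 mitotic members was 0.40 and over the 18 S members 0.04. The nuclear RNAs Malat1 (10893 CPM in Eed iKO-D and 8348 CPM in Ctrl-D) and Neat1 (1777 CPM in Eed iKO-D and 497 CPM in Ctrl-D) moved with the library too, as did Gm42418 (medians of 3.97% of UMIs in Eed iKO-D and 0.310% in Ctrl-D) and the mitochondrial share (3.47% in Eed iKO-D and 1.57% in Ctrl-D). Their part in the ratios of the members was not tested.

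**Figure D2:**
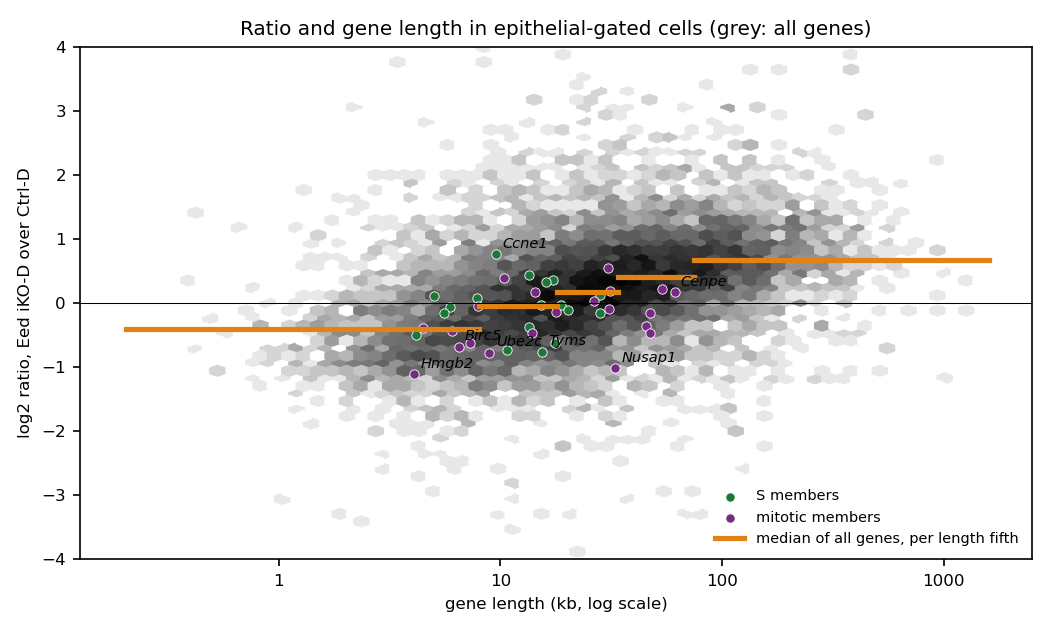
Log2 ratio (Eed iKO-D over Ctrl-D) in epithelial-gated cells against gene length in kb on a log axis, with all genes in grey, S members in green and mitotic members in purple. Orange bars give medians over all genes by length class (5 classes), which climb with length between -0.41 and 0.67, and Nusap1 and Hmgb2 lie below the bars of their own length.

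Mature neutrophils no longer divide, so member UMIs in their gate are given for comparison. The 303 neutrophil-gated Eed iKO-D cells (median depth 6792 UMIs before thinning) had 147 CPM of core S members and 363 CPM of mitotic members without Hmgb2. In Ctrl-D only 32 neutrophil-gated cells were deep enough, with 1 core S UMI and 21 mitotic UMIs other than Hmgb2 in all (438 CPM, 271 to 669). A Top2a UMI was seen in 8.25% of Eed iKO-D neutrophil-gated cells, against 18.8% of Eed iKO-D and 16.5% of Ctrl-D epithelial-gated cells, and an Mki67 UMI in 8.25%, against 14.2% and 12.9% in the same order. Hmgb2 was higher in Eed iKO-D neutrophil-gated cells (526 CPM, 45.5% of cells with a UMI) than in epithelial-gated cells of that library. Slbp (46.2 CPM), Kif23 (33.0 CPM) and Nusap1 (19.8 CPM) were also as high there as in Eed iKO-D epithelial-gated cells or higher, and Pcna (66.0 CPM) was close to its epithelial level. Neutrophil-gated cells were shallower than epithelial-gated cells. In Eed iKO-D they also had more Gm42418 (medians of 16.8% and 3.97% of UMIs), which counts in the total behind CPM. Other Eed iKO-D gates had less of some of these genes: fibroblast-gated cells had 95.8 CPM of Hmgb2, 42.9 CPM of Pcna and 10.3 CPM of Kif23. How much of these levels is free RNA was not tested.

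Eed iKO-D had slightly fewer epithelial cells over the lowest limit on the share of member UMIs, and far fewer over the higher limits. Each share includes the cells over the higher limits. After thinning to 1500 UMIs, 27.1% of Eed iKO-D cells (25.6 to 28.7) and 29.5% of Ctrl-D cells (28.3 to 30.7) had over 0.25% of their UMIs in the 39 members. Over 0.5% were 9.06% of Eed iKO-D cells (8.08 to 10.1) and 15.1% of Ctrl-D cells (14.2 to 16.1), and over 1% were 0.380% (0.196 to 0.663) in Eed iKO-D and 2.22% (1.84 to 2.64) in Ctrl-D. All these shares include Hmgb2, and its part in the gap between libraries was not tested. In neutrophil-gated Eed iKO-D cells the shares were 9.24% over 0.25%, 1.65% over 0.5% and 0.660% over 1% (0.0800 to 2.36, 2 of 303 cells). The last interval holds the Eed iKO-D epithelial share over 1%. These shares are cut from a range and not types of cell: 361 of 3158 Eed iKO-D and 573 of 5416 Ctrl-D cells lay within 2 UMIs of the 0.5% limit. At 6000 UMIs per cell, which 3016 Eed iKO-D and 4945 Ctrl-D cells reached, the order was the same, with 25.2% of Eed iKO-D and 29.3% of Ctrl-D cells over 0.25%, 7.53% and 15.9% over 0.5%, and 0.0663% and 1.96% over 1%. The median cell had 0.0667% of its UMIs in the members in Eed iKO-D and 0.0833% in Ctrl-D, and the 99th percentile was 0.750% in Eed iKO-D and 1.12% in Ctrl-D.

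**Figure D3:**
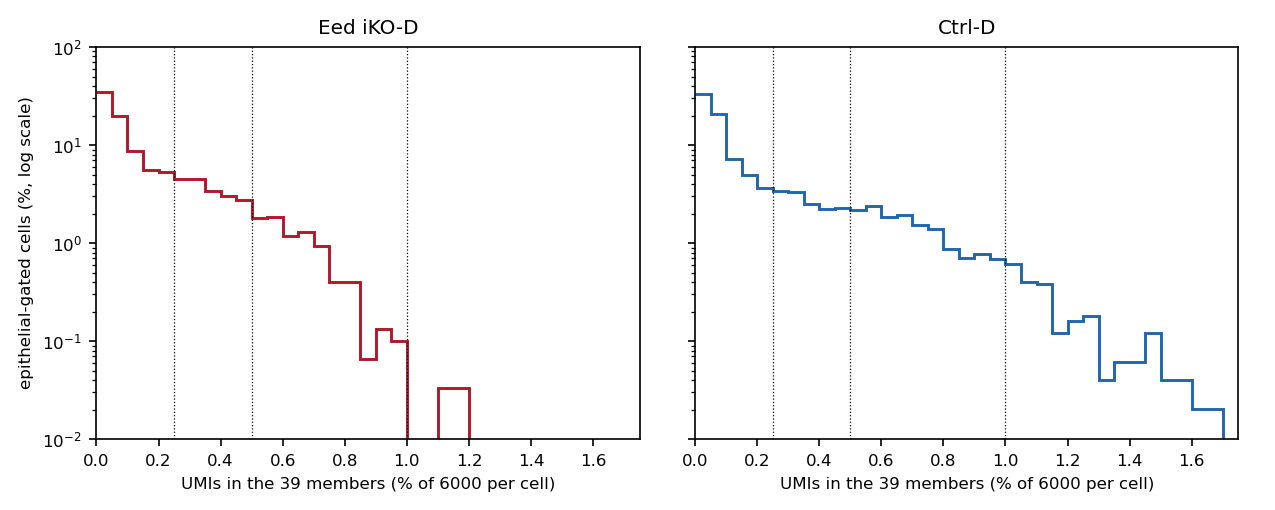
Share of epithelial-gated cells (log axis) by the percentage of their 6000 thinned UMIs that fell in the 39 members, Eed iKO-D on the left and Ctrl-D on the right, with dotted lines at 0.25, 0.5 and 1%. Both curves start alike, and the tail past 1% holds 2 of 3016 cells in Eed iKO-D and 97 of 4945 in Ctrl-D.

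Within the cells over 0.5% at 6000 UMIs, 227 in Eed iKO-D and 788 in Ctrl-D, the S members took 15.2% of the member UMIs in Eed iKO-D and 15.0% in Ctrl-D, which is nearly level. Single mitotic members took different shares. Hmgb2 took 12.6% of member UMIs in Eed iKO-D and 21% in Ctrl-D, Ube2c 6.32% and 8.44%, and Birc5 3.67% and 5.01%, in the same order. Top2a took 15.6% in Eed iKO-D and 10.4% in Ctrl-D, Mki67 9.88% and 6.77%, and Cenpe 4.57% and 2.69%. Cells with more S than mitotic UMIs made up 3.08% of these cells in Eed iKO-D (1.25 to 6.25) and 7.49% in Ctrl-D (5.75 to 9.55). At the lower limit they made up 17.6% of the Eed iKO-D cells over 0.25% (15.0 to 20.5) and 21.1% of those in Ctrl-D (19.0 to 23.3). These cells were picked by the members themselves, so the values are a description.

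The members moved together across cells in part by phase in both libraries. Over single cells thinned to 6000 UMIs, which share depth and library, the 4 mitotic role groups correlated with each other at a Pearson r of 0.52 to 0.74 in Eed iKO-D and 0.63 to 0.80 in Ctrl-D. The licensing and the synthesis groups correlated at 0.49 in Eed iKO-D and 0.54 in Ctrl-D. Core S against mitotic sums gave 0.30 in Eed iKO-D and 0.27 in Ctrl-D. The split by phase was not clean: synthesis against chromosome structure gave 0.41 in Eed iKO-D and 0.46 in Ctrl-D. That was above cyclin E against licensing (0.25 and 0.29) or against synthesis (0.25 and 0.34), in the same order. Cyclin E was nearly unlinked to the spindle group, at 0.02 in Eed iKO-D and 0.04 in Ctrl-D.

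Keratinocyte states, set by marker genes that include no member, differed in the module. The basal gate took only cells that reached no other state. Basal markers had 20813 CPM in basal-gated and 23503 CPM in other epithelial-gated Eed iKO-D cells, and 21447 and 18704 CPM in Ctrl-D. These markers thus set the gate little or not apart. Among the 9 states with at least 50 cells, basal-gated cells had the highest mitotic sum in both libraries, 1548 CPM in 909 Eed iKO-D cells and 1992 CPM in 1331 Ctrl-D cells (ratio 0.777, 0.737 to 0.819). Their core S sum was 424 CPM in Eed iKO-D and 411 CPM in Ctrl-D (ratio 1.03, 0.925 to 1.15). Cells over 0.5% made up 12.5% of Eed iKO-D (10.5 to 14.9) and 20.3% of Ctrl-D basal-gated cells (18.2 to 22.5). Of the measured members, 2 of 17 S members and 0 of 21 mitotic members passed 1.5-fold upwards (background 30.0%), and 2 S and 6 mitotic members downwards (background 16.5%). Ccne1 (21.3 CPM in Eed iKO-D and 9.02 CPM in Ctrl-D) and Mcm4 (63.8 CPM in Eed iKO-D and 38.1 CPM in Ctrl-D) were the S members on the higher side, from 29 and 87 UMIs in Eed iKO-D and 18 and 76 in Ctrl-D.

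Stefin-high cells had mitotic sums of 1179 CPM in Eed iKO-D and 1571 CPM in Ctrl-D (ratio 0.751, 0.684 to 0.822) and follicle-like cells 1045 CPM in Eed iKO-D and 1654 CPM in Ctrl-D (ratio 0.632, 0.524 to 0.755). In follicle-like cells the core S sum was lower as well, 272 CPM in 81 Eed iKO-D cells and 395 CPM in 976 Ctrl-D cells (ratio 0.688, 0.469 to 0.977). Laminin-332-high cells, chosen by genes known from invasive tumour fronts, were level within counting error, with 1146 CPM in Eed iKO-D and 1190 CPM in Ctrl-D (ratio 0.963, 0.819 to 1.14). Spinous-gated cells had few mitotic UMIs, 667 CPM from 50 UMIs in Eed iKO-D and 371 CPM from 207 UMIs in Ctrl-D, and Krt13-high cells 564 CPM in Eed iKO-D and 486 CPM in Ctrl-D. Of states with at least 50 cells in 1 library only, Arg1-high cells (838 in Eed iKO-D and 1 in Ctrl-D) had a mitotic sum of 924 CPM in Eed iKO-D, Cck-high cells (16 in Eed iKO-D and 371 in Ctrl-D) one of 1010 CPM in Ctrl-D, and cornifying cells (8 in Eed iKO-D and 71 in Ctrl-D) one of 272 CPM in Ctrl-D, with 0 of 71 cells over 0.5% (0 to 5.06%). In stefin-high cells 1 of 38 measured members passed 1.5-fold upwards (background 34.2%) and 9 downwards (background 17.1%), and in follicle-like cells 2 of 33 passed upwards (background 30.6%) and 16 downwards (background 24.2%). Of those 16, Hmgb2 had 32 UMIs in Eed iKO-D and each other gene 7 or fewer, so that most reached the 20 UMIs through Ctrl-D, where they were high. In laminin-332-high cells 8 of 35 passed upwards (background 25.5%) and 5 downwards (background 20.6%), where the 8 had 4 UMIs or fewer each in Ctrl-D and reached the 20 UMIs through Eed iKO-D. Only 3 members could be measured in spinous cells, where 2 passed upwards (background 33.8%) and 0 downwards (background 25.8%), and only Hmgb2 in Krt13-high cells, where it passed downwards (background 20.8%, and 29.5% upwards). By state, Hmgb2 was below 1 in ratio in 5 of the 6 states where it was measured, and Ube2c, Birc5 and Nusap1 in each of the 4, 4 and 3 states where they were. Top2a lay above 1 in all 5 states where it was measured, with intervals that held 1 in basal, follicle-like and laminin-332-high cells. Mki67 lay below 1 in 3 of 4 states, among them follicle-like cells (0.418, 0.166 to 0.876, from 7 UMIs in Eed iKO-D). In stefin-high cells Mki67 lay above 1 (1.38, 1.05 to 1.79).

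**Figure D4:**
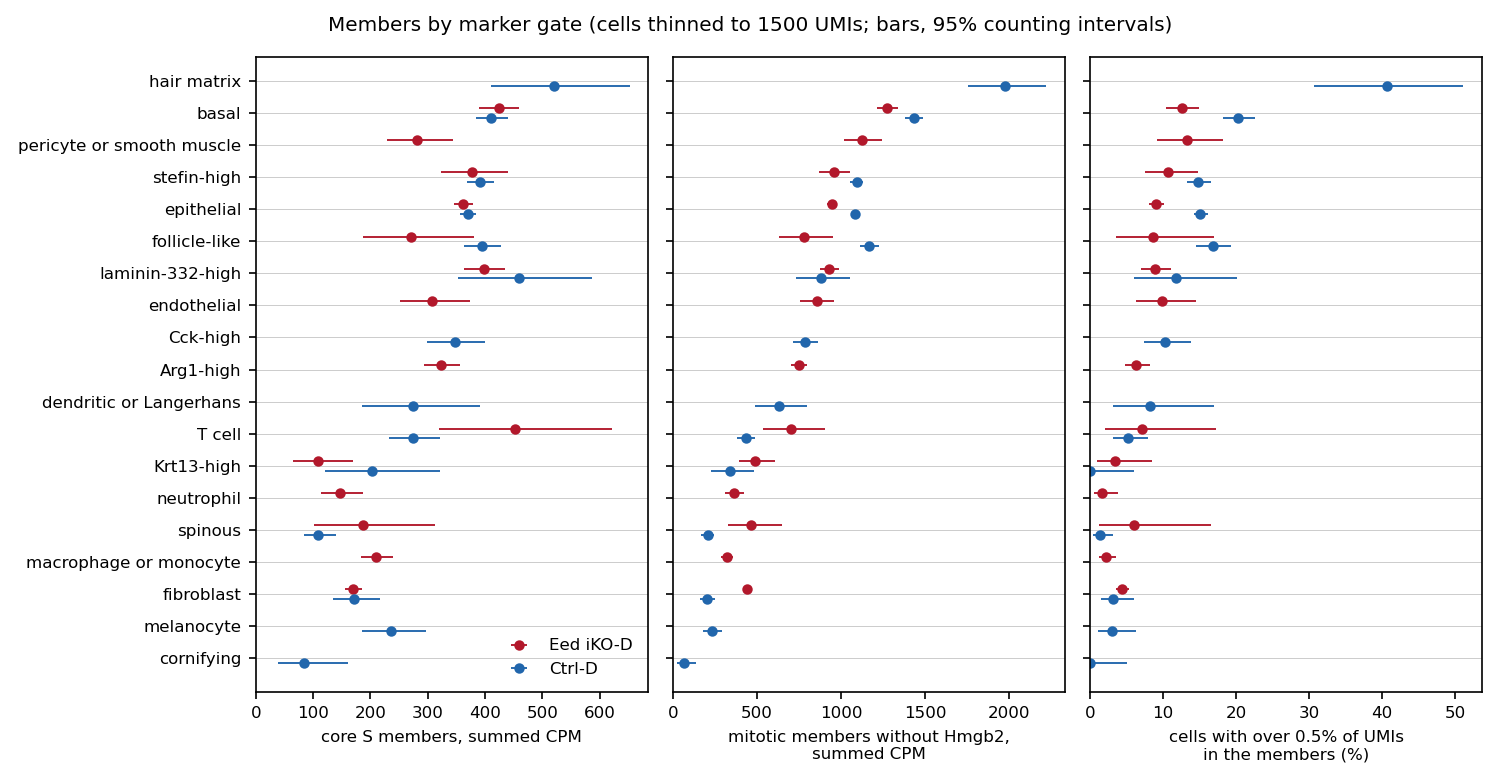
Core S sum, mitotic sum without Hmgb2 (both in CPM) and share of cells with over 0.5% of UMIs in the members, by gate, with Eed iKO-D in red above Ctrl-D in blue and 95% counting intervals. Hair matrix cells of Ctrl-D are highest and cornifying cells lowest, and the share of cells over 0.5% is lower in Eed iKO-D in basal cells, with intervals that do not meet.

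Hair matrix cells (1 in Eed iKO-D and 96 in Ctrl-D) had the highest sums of any gate with at least 50 cells, with a mitotic sum of 3285 CPM, a core S sum of 521 CPM and 40.6% of cells over 0.5% (30.7 to 51.1). Hmgb2 alone had 1306 CPM there.

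In fibroblasts and T cells the mitotic members stood on the other side. Fibroblast-gated cells had a mitotic sum of 534 CPM in 2081 Eed iKO-D cells and 290 CPM in 283 Ctrl-D cells (ratio 1.84, 1.53 to 2.23), while the core S sum was 170 CPM in Eed iKO-D and 172 CPM in Ctrl-D (ratio 0.991, 0.775 to 1.28). Of 18 mitotic members measured in fibroblasts, 12 passed 1.5-fold upwards and 0 downwards, against a background of 24.0% upwards and 25.4% downwards over 10207 genes. Of 13 S members measured, 4 passed upwards and 4 downwards. Mki67 had 57.3 CPM in Eed iKO-D and 9.42 CPM in Ctrl-D, and Top2a 83.9 CPM in Eed iKO-D and 30.6 CPM in Ctrl-D. Top2a had 13 UMIs in Ctrl-D fibroblasts and each of the other 11 had 6 or fewer, 4 in the case of Mki67 and 0 in that of Plk1. These 12 members thus reached the minimum of UMIs over both libraries through Eed iKO-D, where they were high. Their count beside the background therefore cannot decide whether the mitotic members stand apart from other genes. The mitotic sum does not depend on that minimum. The Eed iKO-D fibroblast level without Hmgb2 (438 CPM) stood little above that of neutrophil-gated cells of the same library (363 CPM, 310 to 423), and the Ctrl-D level (203 CPM) below that of the few Ctrl-D neutrophils, so the part of background UMIs in this difference was not tested. Cells over 0.5% were 4.32% of Eed iKO-D (3.49 to 5.29) and 3.18% of Ctrl-D fibroblasts (1.46 to 5.95), intervals that overlap.

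T cell-gated cells had mitotic sums of 1179 CPM in 56 Eed iKO-D cells and 930 CPM in 367 Ctrl-D cells (ratio 1.27, 1.01 to 1.57), from 99 UMIs in Eed iKO-D and 512 in Ctrl-D. Their core S sum was 452 CPM in Eed iKO-D and 274 CPM in Ctrl-D (ratio 1.65, 1.12 to 2.37), from 38 UMIs in Eed iKO-D and 151 in Ctrl-D. All S members together were level within counting error, at 500 CPM in Eed iKO-D and 490 CPM in Ctrl-D (ratio 1.02, 0.718 to 1.415). The licensing group was higher in Eed iKO-D (ratio 1.97, 1.24 to 3.04) and the synthesis group lower (0.556, 0.297 to 0.960). Of 5 S and 5 mitotic members measured there, 2 and 3 passed 1.5-fold upwards (background 22.0%), and 1 and 0 downwards (background 28.3%). Those on the higher side had 5 to 13 UMIs each in Eed iKO-D, and only Mki67 had an interval above 1 (1.05 to 4.75). The lower one, Slbp, had 1 UMI in Eed iKO-D and 61 in Ctrl-D. Pericyte or smooth muscle cells (234 in Eed iKO-D) had a mitotic sum of 1388 CPM with 13.2% of cells over 0.5%, and endothelial cells (223 in Eed iKO-D) 1055 CPM with 9.87%. Each had too few cells in Ctrl-D to be compared. Macrophage or monocyte-gated Eed iKO-D cells had 322 CPM without Hmgb2 (289 to 357), level within counting error with neutrophil-gated cells (363 CPM, 310 to 423).

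**Figure D5:**
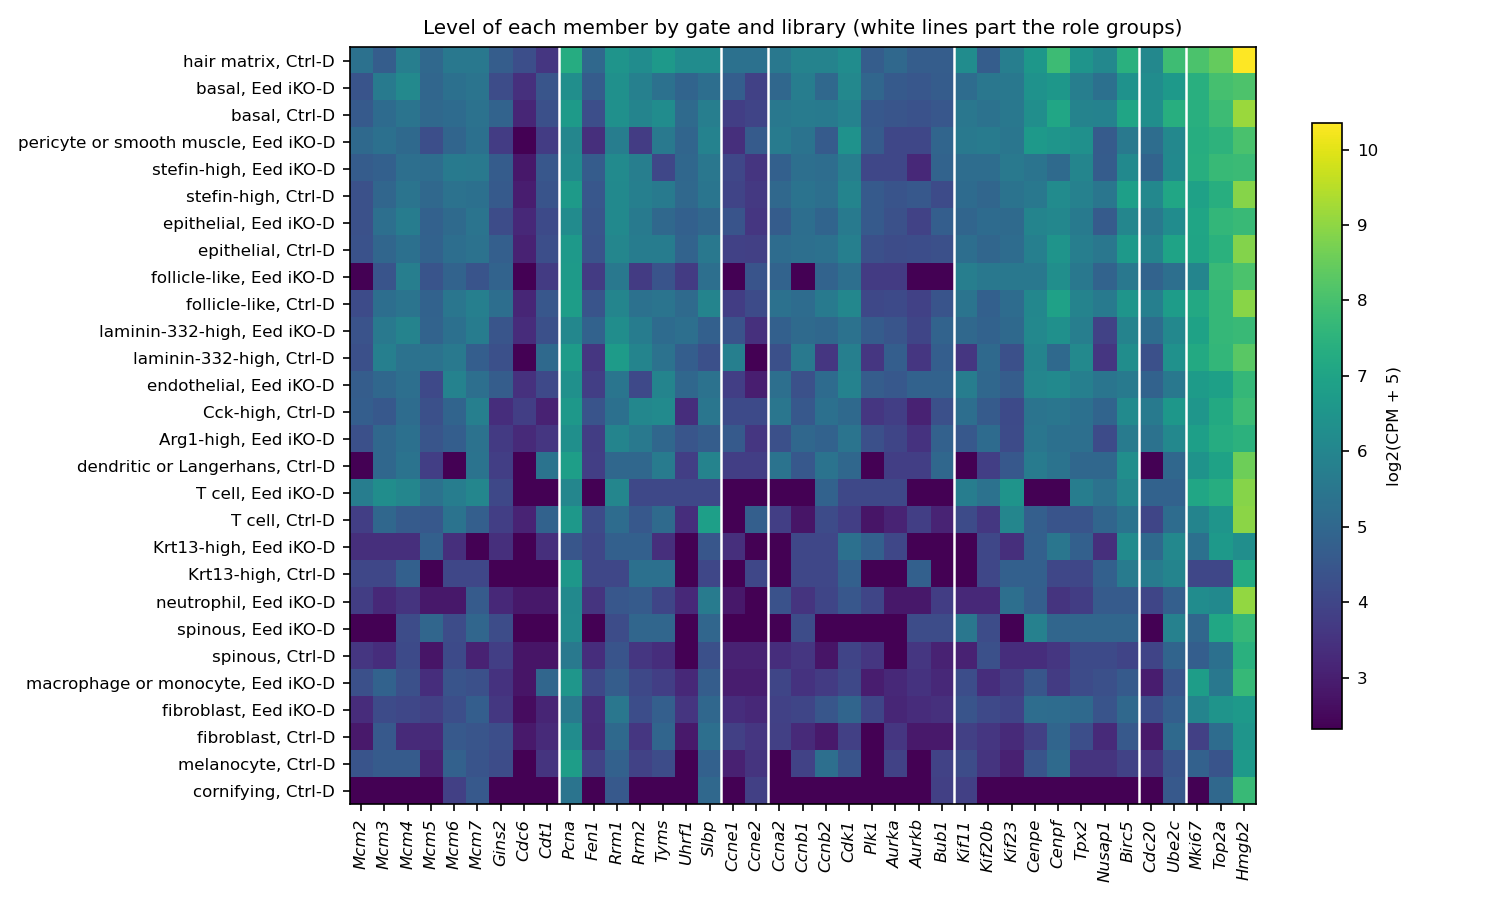
Level of each member (columns, by role, S members left of mitotic members) as log2(CPM + 5) in each gate and library with at least 50 cells (rows). Hair matrix and basal rows are bright across both phases, while the Hmgb2 column is bright also in neutrophil and T cell rows.

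Genes of the same pathways outside the module were counted in epithelial-gated cells beside the 30.9% of all genes that passed upwards and the 18.7% that passed downwards. Of 37 other replication genes, 2 passed 1.5-fold upwards in Eed iKO-D and 9 downwards, a count downwards near the background, and the median log2 ratio was -0.18, beside 0.20 over all genes. Rfc4, a subunit of the clamp loader, had 16.0 CPM in Eed iKO-D and 39 CPM in Ctrl-D (ratio 0.411), and the dUTPase Dut 51.5 CPM in Eed iKO-D and 95.8 CPM in Ctrl-D (ratio 0.538). Ung, which removes uracil from DNA, was lower too (ratio 0.447). Dut, which serves the same nucleotide pathway as Tyms, thus lay on its side.

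Of 39 other mitotic genes, 2 passed 1.5-fold upwards (background 30.9%) and 4 downwards (background 18.7%), both below the background, and the median log2 ratio was 0.02. Cks2, a small partner of Cdk1, had 69.5 CPM in Eed iKO-D and 154 CPM in Ctrl-D (ratio 0.452), Psrc1, a microtubule-associated protein, 4.43 CPM in Eed iKO-D and 16.4 CPM in Ctrl-D (ratio 0.271), and the centromeric histone gene Cenpa 44.8 CPM in Eed iKO-D and 86.8 CPM in Ctrl-D (ratio 0.516). Hjurp, the chaperone that places that histone, went the other way with 34.8 CPM in Eed iKO-D and 11.4 CPM in Ctrl-D (ratio 3.04, 2.35 to 3.97).

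Upstream of the module, 6 of 20 genes for E2F factors, pocket proteins and MuvB subunits passed 1.5-fold upwards in Eed iKO-D and 2 downwards, a share upwards near the 30.9% of all genes. The repressive factors E2f7 (40.1 CPM in Eed iKO-D and 8.37 CPM in Ctrl-D, ratio 4.79, 3.61 to 6.42) and E2f8 (20.7 CPM in Eed iKO-D and 9.48 CPM in Ctrl-D, ratio 2.18) were higher, as were the pocket protein gene Rbl1 (1.70) and Mybl2, which encodes B-Myb (1.81). The activator E2f1 had 4.64 CPM in Eed iKO-D and 8.0 CPM in Ctrl-D (ratio 0.580, 0.341 to 0.954), and Foxm1 6.97 CPM in Eed iKO-D and 7.88 CPM in Ctrl-D (ratio 0.884, 0.563 to 1.37). Of the G1 regulators, Ccnd1 had 250 CPM in Eed iKO-D and 132 CPM in Ctrl-D (ratio 1.89, 1.74 to 2.06) and Cdk6 209 CPM in Eed iKO-D and 107 CPM in Ctrl-D (ratio 1.95), whereas Ccnd2 (0.554) and Cdk4 (0.527) were lower. One D-type cyclin and one of its kinases thus stood on each side.

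Among 7 CDK inhibitors, 1 passed 1.5-fold upwards (background 30.9%) and 2 downwards (background 18.7%), too few genes to set apart from the background. Cdkn2a, a locus that PRC2 is known to silence, had 79.4 CPM in Eed iKO-D and 74.5 CPM in Ctrl-D (ratio 1.07, 0.935 to 1.21), and its neighbour Cdkn2b a ratio of 1.05 (0.836 to 1.31). Cdkn1a, the p21 gene, had 235 CPM in Eed iKO-D and 245 CPM in Ctrl-D (ratio 0.959, 0.891 to 1.03). Cdkn2c (0.481) and Cdkn2d (0.372) were the lower ones. Of 12 p53 targets 4 passed upwards, namely Mdm2 (2.04), Ccng1 (1.93), Sesn2 (1.76) and Zmat3 (1.67), and 1 downwards, a count upwards near the background of 30.9%. Ezh2, the catalytic subunit of PRC2 and a known E2F target, had 58.7 CPM in Eed iKO-D and 85.8 CPM in Ctrl-D (ratio 0.684, 0.593 to 0.787).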

How the data were processed

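The authors deposited UMI counts as whole numbers for each gene in each barcode, limited to barcodes called as cells. Per the labels' protocols, tumours were dissociated, dead cells were removed, and libraries were made with a 10x 3′ v2 kit. Cell Ranger is named as 2.1.0 per the labels' protocols and as 7.1.0 per the file headers, while the submitters' processing notes name 8.0 and build mm10. Whether intronic reads were counted is not given in the sources used here.

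Members and lists were chosen with earlier results of these data known. Cells with at least 500 genes and at most 15% mitochondrial UMIs were kept. A cell entered the lineage with the highest mean marker score if that score was at least 0.3 of the lineage's top 50 cells, led the next by 0.1 and Gm42418 took at most 20% of UMIs. Keratinocyte states needed 0.5 of the top 200 cells (basal, 0.4, given only to cells that reached no other state). These limits were set after the data were seen, and the limit on Gm42418 departs from the plan, which kept such cells. No doublet caller was run: cells of a mixed lineage stay ungated. Cells were thinned to 1500 UMIs. Ratios carry exact conditional binomial intervals, CPM exact Poisson and shares Clopper-Pearson intervals (95%). Log2 ratios add 0.5 UMI. Genes needed 20 UMIs in both libraries together, and calls 1.5-fold. Pathway genes named were up to 4 per list with the largest log2 ratio among those with at least 50 UMIs, besides Foxm1, Mybl2, E2f1, Cdkn1a, Cdkn2a, Ccnd1, Eed and Ezh2. 1 gene that this rule names is not reported here. Malat1 and Neat1 were named after their values were seen. On simulated data for 12881 genes in epithelial-gated cells the intervals covered the true ratio in 95.9%, and 6.43% of unchanged genes passed 1.5-fold (0.624% of those over 100 UMIs). These counts were Poisson draws from 1 pooled profile without variation between cells, as the intervals assume. They thus check the calculation and not the spread between cells or libraries. Python 3.11.15, numpy 2.4.6, scipy 1.17.1 and scanpy 1.11.5 were used.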

Additional observations from a re-analysis of the deposited data

Results flagged for a closer look

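In epithelial-gated cells the mitotic members summed to a ratio of 0.750 (Eed iKO-D over Ctrl-D). In 3 gates the ratio lay on the other side of 1 with an interval above 1: 1.84 in fibroblast-gated cells, 1.80 in spinous-gated cells (1.29 to 2.46, from 50 Eed iKO-D and 372 Ctrl-D cells) and 1.27 in T cell-gated cells. The Krt13-high ratio was above 1 as well, with an interval that held 1 (1.16, 0.804 to 1.70). Each group has 1 library, so the difference between gates was not tested.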

How the results depend on the processing

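Alternatives were run in epithelial-gated cells, those on Gm42418 without a limit, on UMIs without Gm42418 and mitochondrial genes, on the 0.25% limit, on length-matched medians and on basal-gated cells being chosen after the data were seen. No paired analysis was possible because each group has 1 library; for the same reason no replicate could be left out. The 5% of cells with most UMIs were ranked among all kept barcodes of each library and not among epithelial-gated cells alone. In Eed iKO-D epithelial-gated cells were far deeper than all kept barcodes (medians of 39503 and 3191 UMIs), in Ctrl-D only somewhat (15962 and 13199). That setting can thus take out a larger share of epithelial-gated cells in Eed iKO-D than in Ctrl-D. No called result changed direction. The core S log2 ratio (-0.03) crossed 0 and was not near 0 in every alternative: it was -0.13 in clusters made without cell cycle genes, -0.31 without the 5% of cells with most UMIs, 0.058 without cells over 10% Gm42418, 0.056 with all UMIs, -0.13 for all 18 S members, -0.35 with no limit on Gm42418 and 0.13 without Gm42418 and mitochondrial UMIs. The mitotic log2 ratio (-0.42) was below 0 in every alternative run, at -0.61, -0.64, -0.36 and -0.35 for the first 4 of these settings in the same order, -0.20 without Hmgb2, -0.72 with no limit on Gm42418, -0.32 without Gm42418 and mitochondrial UMIs and -0.36 in basal-gated cells. The cause of these shifts was not tested. The quotient of core S to mitotic UMIs stayed higher in Eed iKO-D throughout these alternatives: with all 18 S members it was 0.440 in Eed iKO-D and 0.360 in Ctrl-D, without Hmgb2 0.383 and 0.341, and in basal-gated cells 0.274 and 0.206, with 0.249 in Ctrl-D without the 5% of cells with most UMIs and 0.229 with all UMIs. Among other gates, this quotient was higher in Eed iKO-D in stefin-high, follicle-like and T cell-gated cells. It was lower in laminin-332-high (0.348 in Eed iKO-D and 0.386 in Ctrl-D), spinous (0.280 and 0.295) and Krt13-high cells (0.192 and 0.419), with overlapping intervals. In fibroblasts it was 0.319 (0.289 to 0.352) in Eed iKO-D and 0.594 (0.438 to 0.799) in Ctrl-D. The share of cells over 1% (0.380% in Eed iKO-D, 2.22% in Ctrl-D) became 9.06% and 15.1% at the 0.5% limit, 27.1% and 29.5% at 0.25%, 0% and 0.0369% at 2%, and 0.880% and 3.83% in basal-gated cells. It was 0.128% in Eed iKO-D at 3000 UMIs and 0.0918% with no limit on Gm42418, and 2.65% in Ctrl-D in the clusters and 2.68% without Gm42418 and mitochondrial UMIs. S members higher (1) numbered 0 in the clusters, without the 5% of cells with most UMIs, at 2-fold, relative to the median of all genes, with all UMIs and with no limit on Gm42418, and 2 without Cck-high and follicle-like cells, without Gm42418 and mitochondrial UMIs and in basal-gated cells. S members lower (3) numbered 5 in the clusters and without the 5% of cells with most UMIs, 0 at 2-fold, 7 with no limit on Gm42418 and 1 without Gm42418 and mitochondrial UMIs. Mitotic members higher (0) numbered 1 with the stricter cell filter, the larger gate lead, without Cck-high and follicle-like cells, without cells over 10% Gm42418 and without Gm42418 and mitochondrial UMIs. Mitotic members lower (5) numbered 8 without the 5% of cells with most UMIs, relative to the median of all genes and with no limit on Gm42418, and 2 at 2-fold. Across all alternatives Hmgb2 stayed between -1.41 and -0.70, Nusap1 between -1.22 and -0.65, Ube2c between -1.21 and -0.69, Tyms between -1.10 and -0.44 and Ccne1 between 0.13 and 1.22. Members with under 100 UMIs, such as Cdc6, are limited by depth.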

Other observations

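The barcodes left out of all gates also held member UMIs. In 14258 such Eed iKO-D barcodes of at least 1500 UMIs the core S sum was 255 CPM and the mitotic sum 835 CPM, a quotient of 0.305 (0.296 to 0.315), and 0.849% of them had over 0.5% of UMIs in the members. In 608 such Ctrl-D barcodes the sums were 474 and 2091 CPM, the quotient 0.227 (0.204 to 0.252) and the share 24.3%. Their median Gm42418 share was 41.6% in Eed iKO-D and 0.382% in Ctrl-D.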
